A study of Mus musculus with 7 samples.

Results

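Mouse bone marrow derived macrophages that had been kept with MDP for 24 h and then given Pam3CSK4 for 3 h were set against naive macrophages given Pam3CSK4 for 3 h. Each condition was measured on 1 Affymetrix expression array, so the comparison used 2 of the 7 arrays of the series and all 18193 genes that a probe set with a single gene symbol measures. Per the labels, pretreated cells received MDP at 10 mg/ml for 24 h and then Pam3CSK4 at 1 mg/ml for 3 h. Naive cells were left untreated for 24 h and then received Pam3CSK4 at 1 mg/ml for 3 h. The doses are given in the labels' unit, which may stand for a microgram sign lost in the text, so their size is uncertain. Further arrays were used beside these: cells given MDP at 10 mg/ml after the MDP pretreatment, cells given Pam3CSK4 after 24 h with Pam3CSK4 at 1 mg/ml, cells given MDP after 24 h with Pam3CSK4, naive cells given MDP at 10 mg/ml for 3 h, and naive cells left unstimulated. Every label carries replicate number 2, and mouse strain, sex and age are not given in the sources used here. No analysed culture was pretreated and then left without a second ligand.

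MDP (muramyl dipeptide) is a fragment of bacterial peptidoglycan that is sensed inside the cell by NOD2, which signals through the kinase RIPK2. Pam3CSK4 is a triacylated lipopeptide made by synthesis, which cells detect from outside through TLR2 paired with TLR1, and these receptors signal through MYD88 and the IRAK kinases. Both routes reach NF-kB and MAP kinases, and macrophages exposed to either ligand can become tolerant, meaning that a second stimulation induces some genes less. Type I interferon, which macrophages can also make, acts through its own receptor on a separate set of antiviral genes.

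Values are log2 expression, and a difference is the MDP-pretreated value minus the naive value, so 1 log2 unit is 2-fold. With 1 array per condition there is no replicate check, no p-value and no standard deviation, and the counts below describe these arrays. In such bulk samples fewer cells of a type and less RNA per cell cannot be told apart. Array medians were 5.50 for the MDP-pretreated array and 5.54 for the naive array. All 11 measured macrophage markers of 12, among them Csf1r, Adgre1 and Cd68, lay above those medians on both arrays. Markers of other cell types above the median on both arrays were 6 of 8 for neutrophils, 3 of 7 for T and NK cells, 3 of 5 for B cells, 1 of 5 for dendritic cells, 3 of 8 for stromal cells and 0 of 5 for mast and erythroid cells.

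Gene levels after Pam3CSK4 were close in MDP-pretreated and naive macrophages. Over all genes the median difference was 0.00, with quartiles at -0.09 and 0.11. Only 4 genes (0.022%) were at least 2-fold lower in MDP-pretreated cells, while 54 genes (0.297%) were at least 2-fold higher. A difference above 0 was seen in 47.9% of genes, so the excess of higher genes lay in the tail and not in the bulk of the distribution. Of the 21 pairs that the 7 arrays form, this pair had the second fewest genes past 2-fold, 58 in both directions. The range over pairs ran from 1 gene, between the arrays of Pam3CSK4-pretreated cells, to 977.

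**Figure D1:**
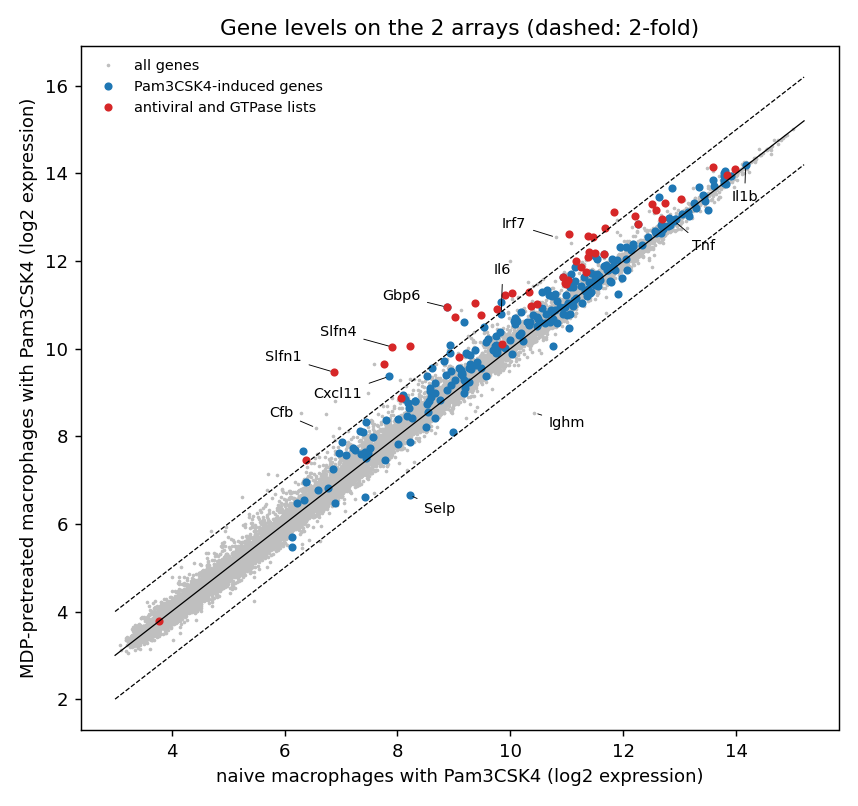
Level of each of 18193 genes on the MDP-pretreated array (vertical axis, log2 expression) against the naive array (horizontal axis, log2 expression), both after Pam3CSK4, 1 array each. Blue points are the 232 Pam3CSK4-induced genes, red points are the members of the antiviral and GTPase lists, the solid line marks equal levels and the dashed lines mark 2-fold. Tnf and Il1b lie on the line, Slfn1, Slfn4, Gbp6 and Irf7 lie above the upper dashed line, and Ighm and Selp lie below the lower one.

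The first question was whether MDP makes macrophages tolerant to Pam3CSK4. The study's design text calls a gene induced at 3-fold over unstimulated cells and tolerized at more than 2-fold lower in tolerant cells, and both limits were used here, with exactly 2-fold counted as lower. Naive cells induced 232 genes with Pam3CSK4 (1.28% of genes). Of these, 1 gene (0.431% of the 232), Selp, was at least 2-fold lower in MDP-pretreated cells and 6 were at least 2-fold higher. The median difference of the induced genes was 0.19, or 1.14-fold, with quartiles at 0.01 and 0.46, and 177 of the 232 lay above 0. Levels over naive unstimulated cells had a median of 5.81-fold in MDP-pretreated cells and 4.87-fold in naive cells given Pam3CSK4. With no culture pretreated and then left unstimulated, the part due to Pam3CSK4 alone could not be told for pretreated cells. After MDP then Pam3CSK4, 219 of the 232 (94.4%) stood 3-fold or more over naive unstimulated cells. The naive Pam3CSK4 array both chose these genes and entered the difference. The shift was smaller among bright genes: the median was 0.29 over the 78 induced genes of lowest mean level, 0.22 over the 77 in the middle and 0.07 over the 77 of highest mean level. Only 1 induced gene exceeded a level of 14 on the naive array.

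Cells given Pam3CSK4 on both occasions gave other values for the same genes. That comparison shares the naive Pam3CSK4 array with the main one, so the values are only set side by side. The shared array also chose the 232 genes, so a lower value after Pam3CSK4 pretreatment is in part built in. The 18S ribosomal RNA probe sets had a median of 10.9 on the array of Pam3CSK4 after Pam3CSK4 and between 8.57 and 9.29 on the other arrays, and the part of this in the values was not tested. After Pam3CSK4 pretreatment 129 of the 232 induced genes stood at least 2-fold below naive cells, where 2.3% of all genes were. Another 17 were at least 2-fold higher, where 2.41% of all genes were, and the median difference was -1.11. Over those 129 genes, whose choice also rests on the naive Pam3CSK4 array, MDP pretreatment gave a median difference of 0.12, with 1 gene at least 2-fold lower.

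**Figure D2:**
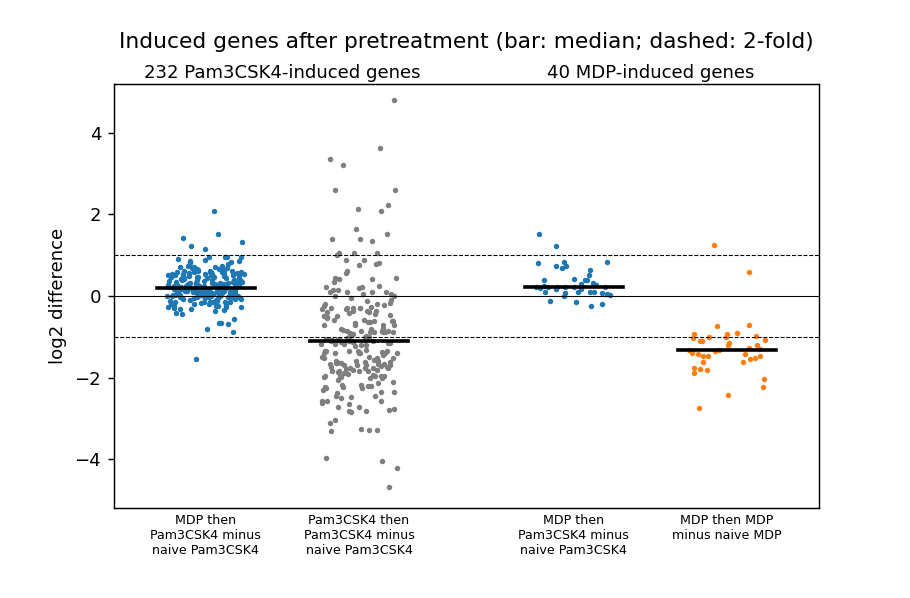
Log2 difference between pretreated and naive cells for each induced gene (vertical axis); each point is 1 gene, the black bar is the median and the dashed lines mark 2-fold. The 232 Pam3CSK4-induced genes have a median of 0.19 after MDP and -1.11 after Pam3CSK4 (left), and the 40 MDP-induced genes have a median of 0.23 for Pam3CSK4 after MDP and -1.32 for MDP after MDP (right). The naive Pam3CSK4 array chose the 232 genes and is subtracted in both left columns. The naive MDP array chose the 40 genes and is subtracted only in the last column.

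Tnf, Il1b and Il10 were at closely matching levels. Tnf, the tumour necrosis factor gene, read 12.92 in MDP-pretreated cells and 12.89 in naive cells, a difference of 0.03, against 9.32 in unstimulated cells. Il1b, which encodes the pyrogenic cytokine IL-1 beta, read 14.19 in MDP-pretreated cells and 14.17 in naive cells, a difference of 0.02. Il10, an anti-inflammatory cytokine gene, read 10.51 in MDP-pretreated cells and 10.47 in naive cells, a difference of 0.04. These 3 genes thus stood within 0.04 of the naive value, although Pam3CSK4 pretreatment gave differences of -1.61, -2.06 and -1.85 for Tnf, Il1b and Il10.

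Other cytokines stood higher after MDP without reaching 2-fold. Il6, the gene of a cytokine that drives the acute phase, read 10.79 in MDP-pretreated cells and 9.84 in naive cells, a difference of 0.96 that is 1.94-fold and just under the limit. Il12b, the p40 subunit shared by IL-12 and IL-23, read 6.95 in MDP-pretreated cells and 6.37 in naive cells, a difference of 0.58. Il1a, the gene of the alarmin IL-1 alpha, read 12.31 in MDP-pretreated cells and 12.04 in naive cells. Of the 21 measured cytokines 19 had a difference above 0, the median was 0.28, none was at least 2-fold higher and 1 was at least 2-fold lower. That gene is Il33, which read 4.24 in MDP-pretreated cells and 5.46 in naive cells. Both values lie below the array medians, so no difference is given for it, and it was named after its values were seen.

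Among 24 chemokines 21 had a difference above 0, the median was 0.28, and 1 was at least 2-fold higher. That gene was Cxcl11, a ligand of the receptor CXCR3, which read 9.37 in MDP-pretreated cells and 7.85 in naive cells, a difference of 1.51. Its other probe set gave 0.18, so the mean of both was 0.85. Cxcl10, another CXCR3 ligand, read 13.46 in MDP-pretreated cells and 12.63 in naive cells, a difference of 0.82. Ccl5, a chemokine that attracts T cells and monocytes, read 13.66 in MDP-pretreated cells and 12.86 in naive cells, a difference of 0.80. The neutrophil attractants differed less: Cxcl1 by 0.61 (12.11 in MDP-pretreated cells, 11.50 in naive cells) and Cxcl2 by 0.10 (13.71 in MDP-pretreated cells, 13.61 in naive cells).

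The genes of the Pam3CSK4 receptor route hardly differed. Over 17 receptor and adaptor genes the differences ran from -0.11 to 0.43 with a median of 0.04. Tlr2 read 13.85 in MDP-pretreated cells and 13.78 in naive cells. Tlr1, its partner for triacylated lipopeptides, read 11.44 in MDP-pretreated cells and 11.55 in naive cells. Cd14, a coreceptor that hands lipid ligands to TLRs, read 14.36 in MDP-pretreated cells and 14.32 in naive cells. The 14 measured genes of MDP sensing and the NOD2 pathway had a median difference of 0.14 and a range from -0.12 to 0.71.

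Feedback genes were also near their naive level. Nfkbia, which encodes the NF-kB inhibitor IkB alpha, read 14.11 in MDP-pretreated cells and 14.18 in naive cells. Tnfaip3, the gene of the ubiquitin-editing enzyme A20, read 12.98 in MDP-pretreated cells and 12.81 in naive cells. Irak3, which encodes the inhibitory kinase-like protein IRAK-M, read 10.39 in MDP-pretreated cells and 10.08 in naive cells. Over the 25 brakes on TLR and NF-kB signalling the median was 0.09, and 1 member was at least 2-fold higher. That member was Usp18, an ISG15 protease that also damps interferon receptor signalling, at 12.55 in MDP-pretreated cells and 11.46 in naive cells, a difference of 1.09. Socs3, a cytokine-induced inhibitor of JAK signalling, read 13.47 in MDP-pretreated cells and 13.43 in naive cells, and the 8 SOCS genes had a median of 0.04. The 26 immediate early factors had a median of 0.06 with none past 2-fold, and the 4 measured NF-kB subunits had a median of 0.20, all above 0.

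Effector and surface genes showed small differences in most cases. Acod1, the enzyme that makes itaconate, read 14.01 in MDP-pretreated cells and 13.78 in naive cells. Ptgs2, the inducible cyclooxygenase, read 11.24 in MDP-pretreated cells and 10.78 in naive cells. Nos2, the inducible nitric oxide synthase, read 7.76 in MDP-pretreated cells and 6.86 in naive cells, a difference of 0.90. All 3 were above the naive value and under 2-fold. Among surface molecules Cd40, a costimulatory receptor, read 12.80 in MDP-pretreated cells and 12.71 in naive cells. Cd83, an activation marker, read 13.04 in MDP-pretreated cells and 13.16 in naive cells. Icam1, an adhesion molecule, read 13.50 in MDP-pretreated cells and 13.42 in naive cells. These 3 were within 0.12 of the naive value, while Pam3CSK4 pretreatment gave -2.63, -4.22 and -1.76 for Cd40, Cd83 and Icam1. Marco and Lcn2, which stood far higher after Pam3CSK4 pretreatment, were under 2-fold higher after MDP. The scavenger receptor gene Marco read 9.21 in MDP-pretreated cells and 8.66 in naive cells, against 13.46 in Pam3CSK4-pretreated cells given Pam3CSK4. Lcn2, the siderophore-binding lipocalin, read 10.63 in MDP-pretreated cells and 10.06 in naive cells, against 13.26 in Pam3CSK4-pretreated cells given Pam3CSK4.

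The 6 induced genes at least 2-fold higher after MDP were Gbp6, Cxcl11, Fpr2, Gem, Ccrl2 and Serpinb2. Fpr2, a formyl peptide receptor, read 10.60 in MDP-pretreated cells and 9.18 in naive cells, 2.68-fold higher. Gem, a small GTPase, read 7.66 in MDP-pretreated cells and 6.32 in naive cells, 2.52-fold higher, and its level was lower on each of the other 5 arrays, between 4.03 and 5.24. Ccrl2, an atypical receptor that binds chemerin, read 11.07 in MDP-pretreated cells and 9.83 in naive cells, 2.35-fold higher. Serpinb2, a serine protease inhibitor, read 10.09 in MDP-pretreated cells and 8.93 in naive cells, 2.24-fold higher. Naive cells repressed 110 genes at least 3-fold with Pam3CSK4 (0.605% of genes), and 77 of these remained 3-fold or more below unstimulated cells after MDP. The median difference of the 110 was 0.12, none was at least 2-fold lower and 2 were at least 2-fold higher, the regulators of G protein signalling Rgs1 and Rgs2. The naive Pam3CSK4 array both chose these 110 genes and is subtracted, so a difference above 0 is in part built in. Rgs1 read 11.13 in MDP-pretreated cells and 10.03 in naive cells, against 11.82 in unstimulated cells. Rgs2 read 10.29 in MDP-pretreated cells and 9.25 in naive cells, against 12.27 in unstimulated cells, and its 4 probe sets gave differences from 0.01 to 1.53.

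Interferon-stimulated genes were among those that stood higher after MDP. Of the 54 genes at least 2-fold higher, 17 (31.5%) belonged to the antiviral and GTPase lists, whose 45 measured members are 0.247% of all genes, and 24 to none of the 37 lists. The lists were chosen with earlier results of these data known, so these shares are only a description. In naive cells given Pam3CSK4, 14 of the 54 were at least 2-fold over unstimulated cells, where 2.27% of all genes were, and 40 were not. The naive Pam3CSK4 array helped choose the 54 genes, so a low value on it is in part built in. Of the 36 measured antiviral genes 14 were at least 2-fold higher and none lower, with a median of 0.76. Of the 9 guanylate binding and immunity related GTPases 3 were at least 2-fold higher and none lower, with a median of 0.84. Of these 45 members 44 had a difference above 0. Over the 45 genes the median level above unstimulated cells was 1.74 in MDP-pretreated cells and 0.82 in naive cells. That median was 2.04 in Pam3CSK4-pretreated cells given Pam3CSK4, 1.00 in MDP-pretreated cells given MDP and 0.70 in naive cells given MDP. A raised level was thus not particular to MDP followed by Pam3CSK4. A level at least 3-fold over naive unstimulated cells was reached by 27 of the 45 in MDP-pretreated cells and by 4 in naive cells.

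Slfn1, a member of the schlafen family, had the largest difference: it read 9.46 in MDP-pretreated cells and 6.87 in naive cells, 6.02-fold higher, against 5.71 in unstimulated cells. Its other probe set gave -0.08, so this value rests on 1 probe set. Slfn4, a schlafen gene of myeloid cells, read 10.04 in MDP-pretreated cells and 7.91 in naive cells, 4.38-fold higher, against 7.32 in unstimulated cells. Ifi213, of the family of DNA-sensing HIN domain proteins, read 8.53 in MDP-pretreated cells and 6.30 in naive cells, 4.69-fold higher, with differences of 2.23 and 2.30 from its 2 probe sets. Gbp6, a guanylate binding protein of host defence, read 10.95 in MDP-pretreated cells and 8.87 in naive cells, 4.21-fold higher. Iigp1, a GTPase that attacks pathogen vacuoles, read 9.64 in MDP-pretreated cells and 7.76 in naive cells, 3.68-fold higher.

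Irf7, the transcription factor that amplifies type I interferon production, read 12.54 in MDP-pretreated cells and 10.81 in naive cells, 3.32-fold higher, and unstimulated cells read 10.73. Irf7 in naive cells given Pam3CSK4 was thus within 0.08 of its unstimulated level. Isg20, an exonuclease that degrades viral RNA, read 10.05 in MDP-pretreated cells and 8.21 in naive cells, 3.57-fold higher. Oas3, which makes the 2-5A activator of RNase L, read 11.05 in MDP-pretreated cells and 9.37 in naive cells, 3.21-fold higher. Oasl1, a related gene known in mice for limiting Irf7 translation, read 10.72 in MDP-pretreated cells and 9.03 in naive cells, 3.23-fold higher. The same held for Ifit3, an RNA-binding antiviral gene, at 12.62 in MDP-pretreated cells and 11.03 in naive cells, 3.01-fold higher. The related Ifit1 read 13.03 in MDP-pretreated cells and 12.20 in naive cells, 1.77-fold higher and under the limit. In the list of 21 interferon factors and STATs Irf7 was the 1 member past 2-fold, and the list's median was 0.07.

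Pattern recognition receptors of nucleic acids were also among the higher genes. Tlr3, the endosomal sensor of double-stranded RNA, read 9.29 in MDP-pretreated cells and 8.04 in naive cells, a difference of 1.25. Ddx58, which encodes the cytosolic RNA sensor RIG-I, read 11.17 in MDP-pretreated cells and 10.13 in naive cells, a difference of 1.04. These were the 2 members past 2-fold among 18 other pattern recognition receptors, whose median was 0.17. Neither kept 2-fold throughout: Tlr3 was at 0.87 without less specific probe sets, and Ddx58 gave 0.75 when its probe sets were averaged and 0.98 after quantile normalization. Ddx60, a helicase linked to RNA sensing, read 8.999 in MDP-pretreated cells and 7.471 in naive cells, a difference of 1.53.

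**Figure D3:**
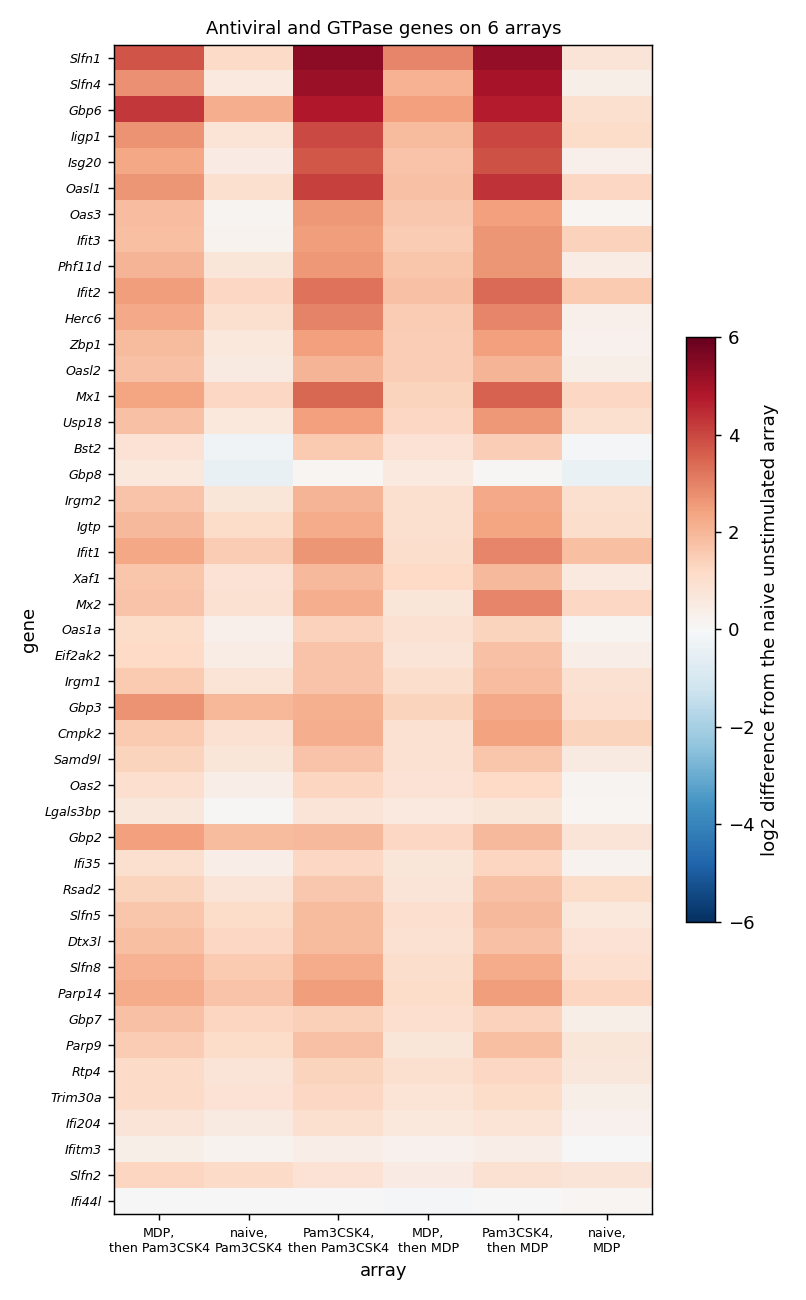
Log2 difference from the naive unstimulated array (colour; red higher, blue lower) for the 45 measured antiviral and GTPase genes (vertical axis) on 6 arrays (horizontal axis), 1 array per condition, sorted by the difference between the first 2 columns. The first column, MDP then Pam3CSK4, has a median of 1.74 and the second, naive Pam3CSK4, 0.82. Pam3CSK4 after Pam3CSK4 has a median of 2.04.

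Promoters of higher genes are shown because interferon acts through a short element, searched on both strands as GAAA, any 2 bases, GAAA. The windows hold 250 bases before and 50 bases after the RefSeq gene start on GRCm38.p6, and 40 of the 54 higher genes had one. The element occurred in 9 of these 40 windows (22.5%) and in 524 of all 14452 windows (3.63%). It occurred in 10 of 185 windows of Pam3CSK4-induced genes (5.41%) and in 11 of 27 windows of the antiviral list (40.7%). An NF-kB element, searched on both strands as GGG, any 2 bases, TTTCC, occurred in 1 of the 40 windows (2.5%), 10 of the 185 (5.41%), 0 of the 27 and 273 of all 14452 (1.89%). Bases may be shared between matches to both elements, a match is not a measured binding site, and longer or degenerate forms were not searched. Capitals mark the interferon element in the sequences below, each written 5′ to 3′ on the strand of its gene. Oas3, at chr5:120777610-120777909 on the minus strand, holds 1 match that starts 75 bases before the gene start.
Oas3: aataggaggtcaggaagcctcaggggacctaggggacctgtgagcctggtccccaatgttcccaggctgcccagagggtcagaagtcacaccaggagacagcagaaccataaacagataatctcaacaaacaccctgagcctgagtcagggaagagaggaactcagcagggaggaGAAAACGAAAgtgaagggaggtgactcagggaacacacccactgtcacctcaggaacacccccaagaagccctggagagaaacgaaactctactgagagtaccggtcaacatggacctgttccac
Ifit3, at chr19:34583279-34583578 on the plus strand, holds 2 matches, 156 and 122 bases before the start, both in the reverse orientation.
Ifit3: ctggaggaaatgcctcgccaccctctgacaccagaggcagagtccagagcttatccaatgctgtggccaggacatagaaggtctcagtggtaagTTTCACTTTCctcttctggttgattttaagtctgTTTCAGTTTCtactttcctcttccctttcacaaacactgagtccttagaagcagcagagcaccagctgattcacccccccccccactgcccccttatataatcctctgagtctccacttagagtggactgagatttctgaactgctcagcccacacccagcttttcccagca
Bst2, which encodes the virion-retaining protein tetherin, read 12.75 in MDP-pretreated cells and 11.67 in naive cells. Its window, at chr8:71537423-71537722 on the minus strand, holds 2 overlapping matches 130 and 124 bases before the start.
Bst2: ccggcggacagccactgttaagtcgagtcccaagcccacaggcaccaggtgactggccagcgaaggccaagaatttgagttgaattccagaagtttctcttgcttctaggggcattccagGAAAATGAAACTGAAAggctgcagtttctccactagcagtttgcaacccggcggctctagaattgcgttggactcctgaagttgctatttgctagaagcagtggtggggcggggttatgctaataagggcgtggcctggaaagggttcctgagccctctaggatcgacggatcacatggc
Matches in Ifit1bl1, Edn1, Ddx58 and Aif1 are not printed. The match in Ddx58 starts 2 bases after the gene start, and that in Aif1 lies in a stretch rich in A. Shorter stretches show the element in genes that also stood higher. Ifi213 has 1 match 73 bases before the start, within chr1:173599311-173599370 on the minus strand. Ddx60 has 2 matches 53 and 19 bases before the start, within chr8:61928009-61928102 on the plus strand.
Ifi213: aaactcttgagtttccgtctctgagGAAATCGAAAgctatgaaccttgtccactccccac
Ddx60: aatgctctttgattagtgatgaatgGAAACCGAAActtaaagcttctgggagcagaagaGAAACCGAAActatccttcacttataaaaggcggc

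Further higher genes lay outside the antiviral and GTPase lists, 37 of the 54 in all. Among the 37 are Irf7, Ifi213 and Ifit1bl1, which other paragraphs treat with the interferon genes, so list membership does not set the interferon share. Plac8, a small cysteine-rich protein gene, read 9.65 in MDP-pretreated cells and 7.58 in naive cells, 4.20-fold higher, against 8.37 in unstimulated cells. Ms4a4c, of the MS4A family of membrane proteins, read 12.01 in MDP-pretreated cells and 10.00 in naive cells, 4.03-fold higher. H2-T24, a nonclassical MHC class I gene, read 8.80 in MDP-pretreated cells and 6.89 in naive cells, 3.74-fold higher, against 7.51 in unstimulated cells. Plac8 and H2-T24 thus stood below the unstimulated level in naive cells given Pam3CSK4 and above it in MDP-pretreated cells, as did Pou3f1, a transcription factor, at 7.13 in MDP-pretreated cells, 5.71 in naive cells and 6.31 in unstimulated cells. With the mean of its probe sets Pou3f1 was at 0.96, under 2-fold. In all, 11 of the 54 genes were at or below the unstimulated level in naive cells given Pam3CSK4, whose array helped choose the 54, so this is in part built in. Over all genes the median of naive Pam3CSK4 minus unstimulated was 0, so many genes outside the 54 lay there as well. Cfb, complement factor B of the alternative pathway, read 8.19 in MDP-pretreated cells and 6.56 in naive cells, 3.10-fold higher. Ch25h, which makes 25-hydroxycholesterol, read 11.53 in MDP-pretreated cells and 10.31 in naive cells, 2.33-fold higher. Aif1, the macrophage protein gene also called Iba1, read 11.59 in MDP-pretreated cells and 10.57 in naive cells, a difference of 1.02 that was 0.98 after quantile normalization.

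Modest shifts ran through lists with no member past 2-fold. All 11 MHC class I presentation genes had a difference above 0, with a median of 0.45 and a range from 0.01 to 0.78. All 8 MHC class II presentation genes did so too, with a median of 0.41, although it was 0.22 when less specific probe sets were left out. Cd74, the invariant chain of MHC class II, read 11.63 in MDP-pretreated cells and 10.90 in naive cells, a difference of 0.73. B2m, the light chain of MHC class I, read 14.56 in MDP-pretreated cells and 14.54 in naive cells. Among 27 cell cycle genes 24 had a difference above 0, with a median of 0.43 and a range from -0.08 to 0.80. Against unstimulated cells the cell cycle median was -0.04 in MDP-pretreated cells and -0.56 in naive cells. The shift was not particular to Pam3CSK4 as second ligand. In MDP then MDP minus naive MDP the 27 genes had a median of 0.61, with 26 above 0. There 3 were at least 2-fold higher, where 0.385% of all genes were, and 0 lower. Pcna, the replication clamp, read 13.32 in MDP-pretreated cells and 13.30 in naive cells. Of the 37 lists, 29 had medians within 0.25 of 0 and 22 had no member past 2-fold in either direction. The 12 housekeeping genes had a median of 0.00 and the 15 macrophage identity genes one of 0.01.

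**Figure D4:**
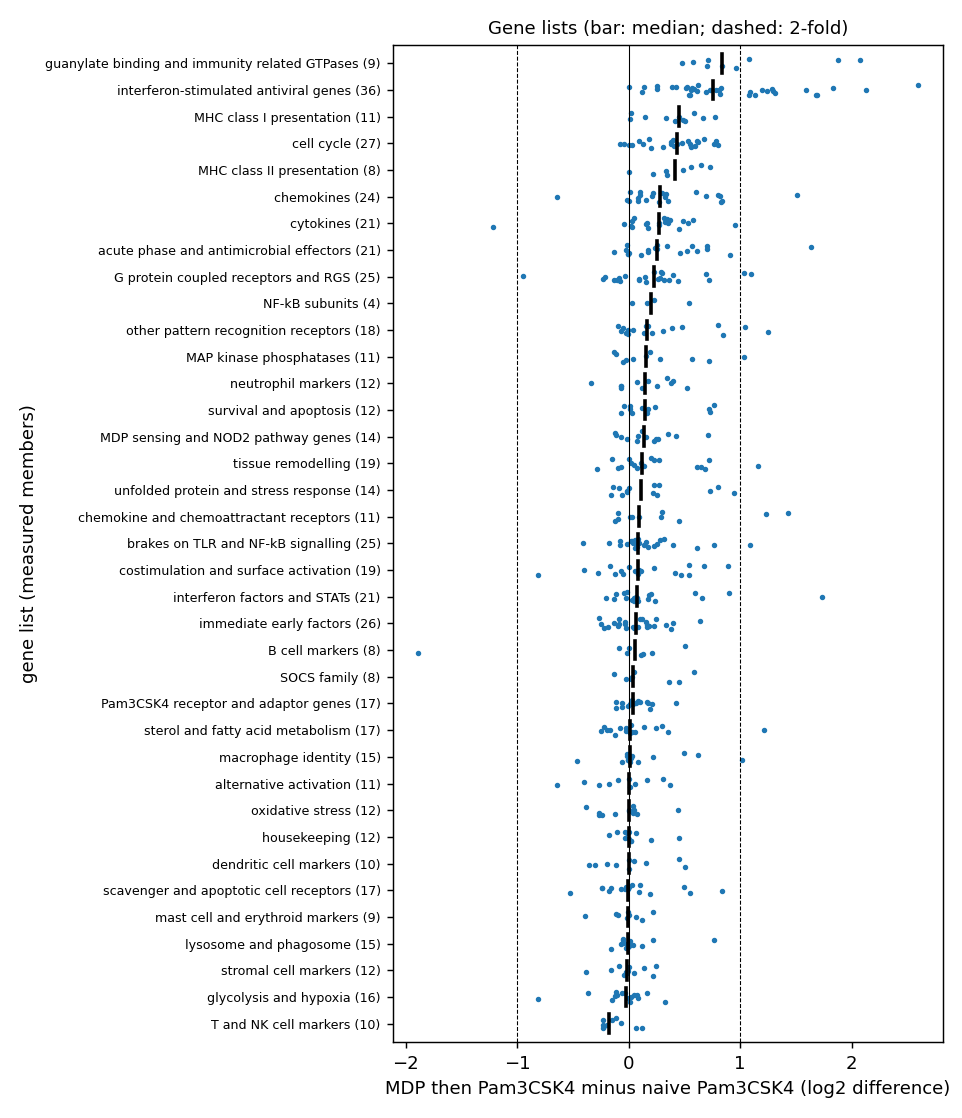
Log2 difference of MDP then Pam3CSK4 minus naive Pam3CSK4 (horizontal axis) for the measured members of 37 gene lists (vertical axis, number of members in brackets). Points are genes, black bars are list medians and dashed lines mark 2-fold. The GTPase and antiviral lists have the highest medians, 0.84 and 0.76, and the T and NK cell markers the lowest, -0.17.

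Few genes stood lower after MDP. Selp, which encodes the adhesion molecule P-selectin, read 6.66 in MDP-pretreated cells and 8.21 in naive cells, a difference of -1.55, against 5.33 in unstimulated cells. Its 3 probe sets gave differences from -1.55 to -0.53, with a mean of -0.96. Hpgd, the enzyme that inactivates prostaglandins, read 5.61 in MDP-pretreated cells and 6.63 in naive cells, a difference of -1.03, against 7.04 in unstimulated cells. Its 2 probe sets gave -1.03 and -0.48 with a mean of -0.76, and it was under 2-fold lower in 4 alternatives, so its place among the lower genes is marginal. Ighm, the immunoglobulin mu heavy chain gene, read 8.54 in MDP-pretreated cells and 10.42 in naive cells, a difference of -1.89. Its 11 probe sets gave differences from -2.12 to 0.20 with a mean of -0.39. No other of the 8 measured genes in the B cell marker list was past 2-fold, and the list's median was 0.05. Of the 5 measured B cell markers, Cd79b, Pax5 and Ighm were above the median of both arrays, and Cd79a and Ms4a1 were not.

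The next lowest of the induced genes were Tha1, a threonine aldolase (8.10 in MDP-pretreated cells, 8.98 in naive cells), and Slamf1, a receptor of the SLAM family (6.62 in MDP-pretreated cells, 7.43 in naive cells). Gja1, the gap junction protein connexin 43, read 10.06 in MDP-pretreated cells and 10.75 in naive cells. Ednrb, an endothelin receptor, read 11.24 in MDP-pretreated cells and 11.91 in naive cells. Errfi1, a feedback inhibitor of the EGF receptor, read 10.48 in MDP-pretreated cells and 11.04 in naive cells. These 5 genes had differences between -0.88 and -0.56, so they remained within 2-fold of the naive level. With the mean of its probe sets Slamf1 had a difference of -0.19. Ifi202b, a gene of the HIN family, read 5.48 in MDP-pretreated cells, below the array median, and 6.14 in naive cells, so its difference is a bound of -0.64.

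A further question was whether the same pretreatment acted alike under either second ligand. The difference between MDP then MDP and naive MDP shares no array with the difference described so far. Naive cells induced 40 genes at least 3-fold with MDP (0.22% of genes). In MDP-pretreated cells given MDP, 31 of the 40 stood at least 2-fold below the naive MDP array, where 0.291% of all genes were, and 1, Ccl5, was at least 2-fold higher, where 0.385% of all genes were. Their median was -1.32. The naive MDP array both chose these 40 genes and is subtracted here, so a lower value is in part built in, which is not so for the difference under Pam3CSK4. The 232 Pam3CSK4-induced genes, chosen without either array of this difference, had a median of -0.48 in it, with 46 at least 2-fold lower. In pretreated cells given Pam3CSK4, none of the 40 MDP-induced genes was at least 2-fold lower, 2 were at least 2-fold higher (Cxcl11 and Ccrl2), 35 lay above 0 and the median was 0.23. All 40 were at least 3-fold over unstimulated cells after MDP then Pam3CSK4. For Acod1 the values were 11.24 in MDP-pretreated cells given MDP and 12.85 in naive cells given MDP, a difference of -1.61, beside 0.23 under Pam3CSK4. For Tlr2 the values were 12.01 in MDP-pretreated cells given MDP and 13.30 in naive cells given MDP, a difference of -1.29, beside 0.07 under Pam3CSK4. For Socs3 the values were 7.21 in MDP-pretreated cells given MDP and 9.45 in naive cells given MDP, a difference of -2.24, beside 0.04 under Pam3CSK4. Of the 53 genes at least 2-fold lower under MDP, 1, Ighm, was also at least 2-fold lower under Pam3CSK4, and 40 had a difference above 0.

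Part of the higher genes was higher under both ligands. Of the 54 genes at least 2-fold higher under Pam3CSK4, 19 were at least 2-fold higher under MDP, which is 35.2% of the 54 and 27.1% of the 70 such genes under MDP. Among the 54, 45 had a difference above 0 under MDP, where 43.2% of all genes did, and their median there was 0.79. Slfn1, Plac8, Ifi213, Ms4a4c, Slfn4 and Irf7 had differences of 2.15, 2.12, 1.88, 1.80, 1.72 and 1.67 under MDP. Not every interferon gene did so: Ifit3 differed by 1.59 under Pam3CSK4 and by 0.14 under MDP, with 12.35 in MDP-pretreated cells given MDP and 12.21 in naive cells given MDP. Ifit1bl1 differed by 1.75 under Pam3CSK4 and 0.06 under MDP, and Cfb by 1.63 under Pam3CSK4 and 0.23 under MDP. Ch25h and Ccrl2 ran in opposite directions, with -1.18 and -1.03 under MDP. Across all genes the Pearson correlation of both differences was 0.39; genes are not independent replicates, and each difference rests on 1 pair of arrays.

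Genes that stood high in MDP-pretreated cells given MDP can also be read against unstimulated cells, again without a shared array. There 71 genes (0.39% of genes) were at least 2-fold over unstimulated cells, and all 71 had a difference above 0 under Pam3CSK4, with a median of 0.83. Of these 71 genes 32 (45.1%) were among the 54 higher genes, of which they make up 59.3%. Irf7 read 12.46 in MDP-pretreated cells given MDP and 10.73 in unstimulated cells, close to its 12.54 in MDP-pretreated cells given Pam3CSK4. Slfn1 read 8.63 in MDP-pretreated cells given MDP and 5.71 in unstimulated cells, below its 9.46 in MDP-pretreated cells given Pam3CSK4. Plac8 read 10.13 in MDP-pretreated cells given MDP and 8.37 in unstimulated cells, above its 9.65 in MDP-pretreated cells given Pam3CSK4. The level in Pam3CSK4-pretreated cells given Pam3CSK4 exceeded that in MDP-pretreated cells given Pam3CSK4 for 43 of the 54 genes. Slfn4, for example, read 12.48 and Irf7 read 13.30 in Pam3CSK4-pretreated cells given Pam3CSK4. Over all genes the median of MDP then Pam3CSK4 minus Pam3CSK4 then Pam3CSK4 was -0.03. More genes were thus higher than lower on the latter array, by a small margin at the median, and their share was not counted. Against naive cells given Pam3CSK4, 43 of the 54 were at least 2-fold higher after Pam3CSK4 pretreatment, where 2.41% of all genes were. Another 2 were at least 2-fold lower, and the median was 1.97. The naive array that helped choose the 54 genes is subtracted there, so a higher value is in part built in. The array of Pam3CSK4 after Pam3CSK4 is also the one whose 18S ribosomal RNA median was 10.9, and the part of this in the values was not tested.

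**Figure D5:**
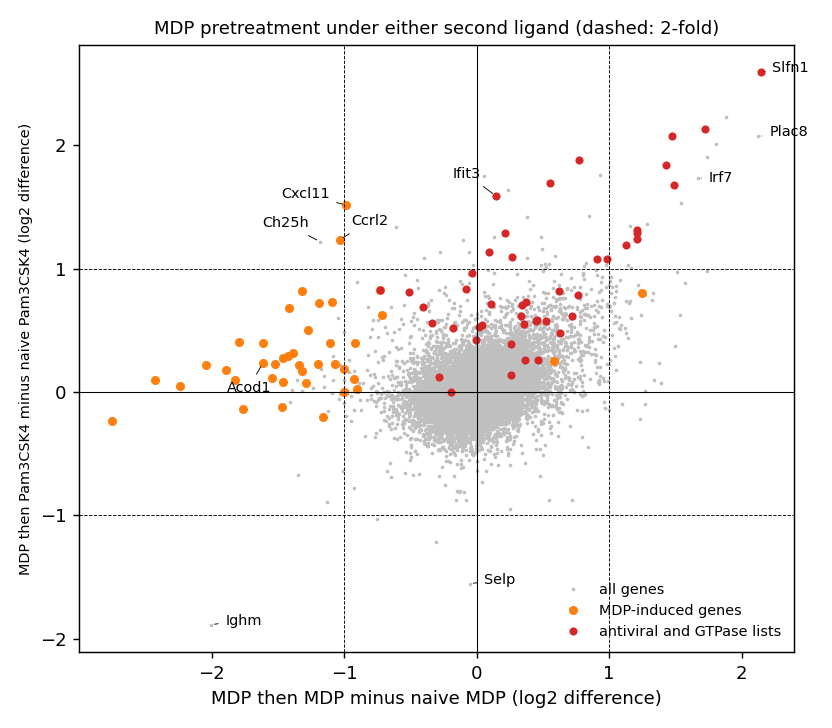
Log2 difference between MDP-pretreated and naive cells under Pam3CSK4 (vertical axis) against that under MDP (horizontal axis) for 18193 genes; the axes share no array and dashed lines mark 2-fold. Orange points are the 40 MDP-induced genes, 31 of which lie at least 2-fold lower on the horizontal axis and none on the vertical one. Red points are members of the antiviral and GTPase lists. Slfn1 and Irf7 are past 2-fold on both axes, and Ifit3 is past it on the vertical axis but at 0.14 on the horizontal one.

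Beyond the 232 genes induced in naive cells, 106 genes were at least 3-fold over unstimulated cells in MDP-pretreated cells given Pam3CSK4 but not in naive cells given Pam3CSK4. With them the number of genes at least 3-fold over naive unstimulated cells was 325 in MDP-pretreated cells (1.79% of genes) and 232 in naive cells. Of the 106 genes 23 belonged to the antiviral and GTPase lists, whose 45 measured members are 0.247% of all genes. These lists were chosen with earlier results of these data known, which limits what this share shows. The way the 106 genes were chosen places all of them above 0, so their differences are only a description. Of the 106, 30 were at least 2-fold above naive cells. The other members of this group had crossed the 3-fold limit with a smaller difference from naive cells. Technical measures of both arrays were close: the probe sets for 18S ribosomal RNA had medians of 9.06 on the MDP-pretreated array and 9.001 on the naive array. The 3' minus 5' difference of the Gapdh control was 0.08 on the MDP-pretreated array and 0.07 on the naive array.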

How the data were processed

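Per the labels' protocols, total RNA was purified with an RNeasy kit and biotinylated cRNA was prepared by the Affymetrix protocol. The deposited values are log2 expression per probe set, and per the submitters' processing notes they were made with affy and RMA. Versions, probe set definitions and the arrays normalized together are not given in the sources used here. Values ran from 2.95 to 15.1 over 45101 probe sets.

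Symbols came from the platform annotation. Of the probe sets, 34945 had 1 symbol, 932 several and 9160 none, and 64 were controls. Each of 18193 genes was read from whichever of its single-symbol probe sets averaged highest over the 7 arrays. Differences were plain subtractions, computed with Python 3.11.15, numpy 2.4.6 and pandas 2.3.3, and the code was tested on simulated data. A value below its array's median was raised to that median before a difference was ranked, making it a bound; where both lay below, none is given. Named genes were the 20 highest and lowest past 2-fold, the 5 highest and 10 lowest induced genes, up to 4 members per list past 2-fold or otherwise the 2 brightest, and a fixed list. The members, lists and named genes were chosen with earlier results of these data known. The number of arrays limits the precision. Alternatives covered scaling, probe sets, filters, a pseudocount, thresholds and the array choosing induced genes.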

Additional observations from a re-analysis of the deposited data

Results flagged for a closer look

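MDP-pretreated and naive cells differed in opposite directions under the 2 second ligands for 4 results, and with 1 array per condition the difference between ligands was not tested. The 232 Pam3CSK4-induced genes had a median difference of 0.19 under Pam3CSK4 and -0.48 under MDP. The 40 MDP-induced genes had a median of 0.23 under Pam3CSK4 and -1.32 under MDP. The naive MDP array chose these 40 genes and is subtracted under MDP only, so part of that fall is built in. Likewise the naive Pam3CSK4 array chose the 232 genes and is subtracted under Pam3CSK4 only. Ccrl2, the chemerin-binding receptor gene, differed by 1.23 under Pam3CSK4 and -1.03 under MDP. Ch25h, the cholesterol 25-hydroxylase gene, differed by 1.22 under Pam3CSK4 and -1.18 under MDP.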

How the results depend on the processing

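No paired analysis was possible because every condition has 1 array and all carry the replicate number 2, and no array was left out for the same reason. Centring on array medians or housekeeping genes and quantile normalization shifted the median of all genes by 0.05, -0.03 and 0.00. Over all alternatives, 339 counts and list medians stayed within 1.5 times (counts) or 0.145 (log2 values) of those reported and 31 did not, against 816 and 38 for named genes. Under the 8 alternatives of scaling, probe sets, filter and pseudocount, genes at least 2-fold higher numbered 41 to 66 and lower ones 1 to 4, and higher induced genes numbered 4 to 9. Of 35 named genes past 2-fold, 11 fell short of it under at least 1 alternative: Aif1, Cxcl11, Ddx58, Dusp14, Gbp8, Hpgd, Ighm, Pou3f1, Rgs2, Selp and Tlr3. The others did not all have a value under each alternative. Irf7, Isg20, Ms4a4c, Ccrl2 and Gem had none once less specific probe sets were left out, so they were not checked there. Gem also had no value under the stricter of the filters on level. A sign change occurred under at least 1 alternative for 11 list medians and 19 named genes, all within 0.11 of 0, and for none past 2-fold. Low signal limits Il33 and Ifi202b, where at least 1 array lies below its median.

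Genes at least 2-fold lower numbered 1 with the mean of probe sets (against 4), 2 with values required above the 75th percentile and 2 with 32 added to linear values. Past 1.5-fold, 35 genes were lower and 321 higher; past 3-fold, 1 was lower and 16 higher. Of Pam3CSK4-induced genes, 6 were lower and 33 higher past 1.5-fold, and 0 were lower and 1 higher past 3-fold. The count of lower induced genes was 2 with housekeeping centring and 0 with the mean of probe sets. With induction at 2-fold, 2 genes were lower, 14 higher and 399 still counted as induced against naive unstimulated cells. With genes chosen on naive MDP, 0 were lower, 2 higher and 40 still counted as induced in this way. Chosen on Pam3CSK4 then MDP, 0 were lower and 42 higher with a median of 0.55, and chosen on Pam3CSK4 then Pam3CSK4, 0 were lower and 41 higher with a median of 0.56. Leaving out less specific probe sets gave medians of 0.35 for NF-kB subunits and 0.22 for MHC class II. Above the 75th percentile they were 0.29 for chemoattractant receptors, 0.30 for neutrophil, 0.51 for dendritic and -0.16 for stromal markers. The causes were not tested.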
